A study of Mus musculus with 16 samples.

Results

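Genes of ependymal cells and of motile cilia were followed in whole brains of male C57BL/6J mice with and without SLC5A8, a sodium-coupled transporter of lactate, pyruvate and ketone bodies. The set held 38 genes, and a gene was measured if its symbol stood as the gene name of a non-control probe on the array. By that rule 27 of the 38 genes had a probe, 40 probes in all, and 26 genes were tested among 23032 genes in the whole series. The 4 groups were SLC5A8-deficient mice at 18 months (old deficient), SLC5A8-deficient mice at 4 months (young deficient), wild-type mice at 18 months (old wild type) and wild-type mice at 4 months (young wild type), with 4 arrays each. The deleted part of the gene, the targeting allele and any breeding scheme are not given in the sources used here. RNA came from the whole brain, so fewer ciliated cells and less RNA per ciliated cell cannot be told apart.

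Ependymal cells line the brain ventricles and carry tufts of motile cilia that move the cerebrospinal fluid. A motile cilium is built on an axoneme, a ring of doublet microtubules around a central pair, with dynein arms that make the doublets slide, radial spokes that reach inward to the central pair, and tektins and ruler proteins that set the spacing along the doublets. The transcription factor Foxj1 switches on genes of this structure, together with factors of the RFX family that bind a motif called the X-box.

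Most of the genes were readily measured in whole brain. The probe that represented the gene was well above background on all 16 arrays for 25 of the 26 genes tested, and Spag16 was above it on 12 arrays. Spag17, a central pair gene, had 2 probes that were above background on 0 arrays, and it was not tested. The 11 genes with no probe under their own symbol were Mia and 10 axonemal dynein heavy chains, Dnah1, Dnah2, Dnah3, Dnah5, Dnah6, Dnah7a, Dnah7b, Dnah9, Dnah11 and Dnah12. The array annotation uses the older Dnahc symbols, and genes under those names are described with the wider list of motile cilia genes further on. The probe named Spag6 carries a transcript record that the GRCm38 gene table lists as Spag6l, and Spag6 and Spag6l are close copies, so its signal may come from either gene.

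The probes behind the 2 called genes are 60-base oligonucleotides, shown here because 2 probes of Spag16 gave unlike values at 18 months. Coordinates are those of the scanner files (NCBI37/mm9). Counted along the gene, Spag16 probe 2 lies at chr1:69972449-69972508 on the plus strand and Spag16 probe 4 at chr1:70771373-70771432 on the plus strand, and the Rsph9 probe lies at chr17:46266279-46266338 on the minus strand. No exon annotation of that build was used.
Spag16 probe 2: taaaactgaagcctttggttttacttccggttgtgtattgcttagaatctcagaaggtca
Spag16 probe 4: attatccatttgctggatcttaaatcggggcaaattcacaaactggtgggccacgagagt
Rsph9 probe: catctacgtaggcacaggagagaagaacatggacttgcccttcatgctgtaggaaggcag

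The promoters of the set were also searched for motifs, in a window of 250 bases before to 50 bases after each gene's start (RefSeq, GRCm38.p6). Of the 26 genes tested, 22 had a promoter in the table. The letters GTTGCC, a strong X-box arm, stood on either strand in 14 of these 22 genes (63.6%), against 14.1% of 27025 genes in the table. A fuller X-box, GTTNCC followed after 1 to 3 bases by GGNAAC on either strand, stood in 3 of 22 (13.6%), Fam183b, Iqca and Pifo, against 0.903% of all genes. It can overlap GTTGCC, which may form its left arm. The letters GTAAACA, a forkhead motif, stood in 2 of 22 (9.09%), Ak7 and Mlf1, against 4.05% of all genes. Promoters of Fam183b, a gene of ciliated cells, and Spag16 are printed as examples of windows that hold GTTGCC, from genes that were lower on every young deficient array than on any young wild-type array. Tmem212, which was lower in the same way, had none of these motifs in its window, and neither had Rsph9, the other called gene. Any link between the motifs and the differences in level was not tested. Capitals mark GTTGCC on either strand and, in Fam183b, the fuller X-box. The Fam183b window is chr11:58801911-58802210 on the minus strand and the Spag16 window chr1:69826720-69827019 on the plus strand, both in GRCm38.p6.
Fam183b promoter: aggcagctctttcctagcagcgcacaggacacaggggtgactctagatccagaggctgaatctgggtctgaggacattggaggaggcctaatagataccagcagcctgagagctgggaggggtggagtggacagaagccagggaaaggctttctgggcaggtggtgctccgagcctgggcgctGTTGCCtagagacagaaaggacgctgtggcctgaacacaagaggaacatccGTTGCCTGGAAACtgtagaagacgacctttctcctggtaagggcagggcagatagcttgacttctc
Spag16 promoter: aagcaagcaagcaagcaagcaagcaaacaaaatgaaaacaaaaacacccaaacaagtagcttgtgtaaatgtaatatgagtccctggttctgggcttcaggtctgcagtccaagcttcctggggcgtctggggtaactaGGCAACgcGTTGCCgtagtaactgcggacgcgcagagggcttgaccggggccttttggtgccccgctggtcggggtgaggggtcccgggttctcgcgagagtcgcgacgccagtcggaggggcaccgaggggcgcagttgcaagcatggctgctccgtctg

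All levels given here are log2 of the processed spot signal minus the array's 75th percentile, so they compare arrays for 1 gene and not 1 gene with another. Each array had 59305 non-control spots, with 58.4% to 66.1% of them well above background, 0 saturated and a 75th percentile of 624.3 to 1345.8 signal units. The Slc5a8 probe was above background on 0 of 16 arrays, at -7.49 ± 0.55 in old deficient, -7.22 ± 0.62 in young deficient, -7.04 ± 0.17 in old wild-type and -7.27 ± 0.38 in young wild-type brains (SD, n = 4 each), and so it checks nothing about the labels. Each genotype lay on 1 slide read in 1 scanning session, and slide and genotype cannot be told apart. Within a slide each age filled 1 row, so row and age cannot be told apart either. The order was reversed between slides. Young deficient and old wild-type arrays lay in row 1, old deficient and young wild-type arrays in row 2. Row therefore also differed between the genotypes at each age, and it cannot be told apart from the interaction of age and genotype. The replicate number was also the slide column, so array 1 of each group lay in column 1. Young deficient array 1 stood apart on the first principal component (29.5% of the variance), at 97.3 against -26.2 to 26.6 for the other 15 arrays. Young wild-type array 1 stood apart in genes of tissues that border the brain, with all 25 choroid plexus genes above their own means (median 1.44) and all 6 pituitary genes above theirs (median 5.26).

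**Figure D1:**
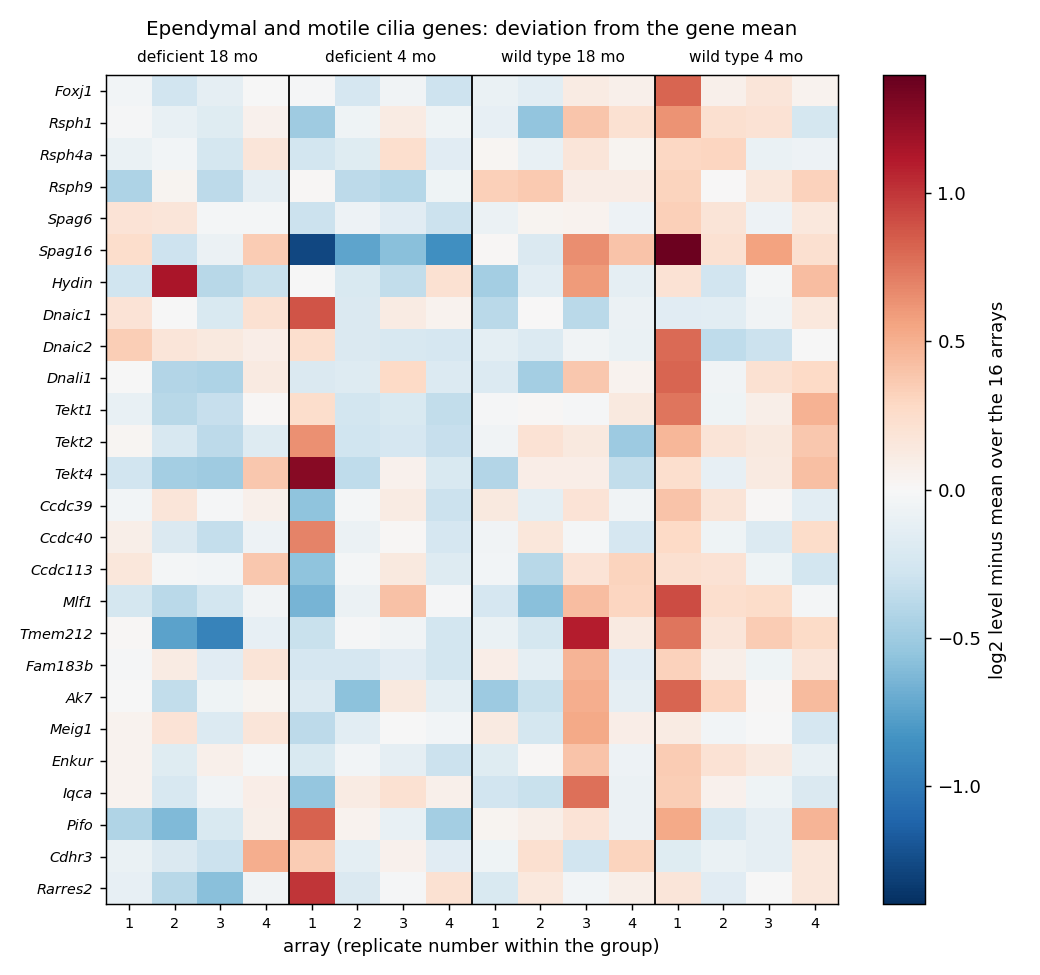
Heat map of the 26 ependymal and motile cilia genes (rows) on the 16 arrays (columns, by group and replicate number). Colour gives the log2 level minus the gene's mean over the 16 arrays. On young wild-type array 1, 24 of 26 genes were above their mean, and young deficient array 1 held the highest value of 6 genes and the lowest of 8.

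In young mice most of the set lay below 0 in deficient minus wild-type brains, and 1 gene of it passed the test. The difference was below 0 for 21 of 26 genes, with a median log2 difference of -0.31 (quartiles -0.40 and -0.09), while over all genes tested 46.2% were below 0 and the median was 0.02. By limma's fit over all 16 arrays with Benjamini-Hochberg adjustment over all genes, 1 gene fell, Spag16, and 0 rose, where 0.847% of all genes fell and 0.682% rose. Unadjusted p was under 0.05 for 8 of 26 genes, against 17.4% of all genes. For 4 genes every young deficient array was below every young wild-type array (Spag16, Foxj1, Fam183b and Tmem212), where 4.79% of all genes did this. The opposite order, shown by 4.68% of all genes, was seen for 0 of the 26.

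Part of that shift moved with young wild-type array 1. Leaving that array out gave a median of -0.20 with 18 of 26 genes below 0, and leaving out young deficient array 1 as well gave -0.16 with 22 of 26 below 0. Choroid plexus genes, whose epithelium is continuous with the ependyma, were below 0 for 24 of 25 genes in the same comparison (median -0.68, 0 called). Their median deviation per array was -0.39 to 0.05 in young deficient and -0.27 to 1.44 in young wild-type brains. The part of choroid plexus tissue in the shift of the cilia genes was not tested.

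Foxj1, the regulator, read -0.28, -0.50, -0.31 and -0.55 on the young deficient arrays and 0.55, -0.19, -0.09 and -0.21 on the young wild-type arrays. The groups did not overlap, and young wild-type array 1 lay far above the other 3. The difference was -0.43 ± 0.15 (SE, adjusted p = 0.158 by limma), and -0.25 without that array. In old mice Foxj1 read -0.30, -0.53, -0.39 and -0.27 in deficient and -0.35, -0.41, -0.15 and -0.19 in wild-type brains, overlapping groups that differed by -0.10 ± 0.15 (limma adjusted p = 0.935).

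The radial spoke and central pair genes were below 0 in young mice for 6 of 6 genes tested (median -0.34). Spag16, a central pair protein that is required for sperm motility in mice, read -6.36, -5.82, -5.67 and -5.94 on the young deficient arrays and -3.71, -4.87, -4.52 and -4.86 on the young wild-type arrays. Every young deficient array was lower, and only 1 of those 4 spots was well above background, so the low values have limited precision. Spag16 fell in young deficient brains, with a log2 difference of -1.46 ± 0.26 (limma adjusted p = 0.0124) whose size depended on how dim signal was treated. The call was lost with normexp background correction (-0.39, adjusted p = 0.282) and when only the 2 young groups were fitted (adjusted p = 0.0889). From the deposited log2 values the difference was -0.63 (limma adjusted p = 0.0437). Without young wild-type array 1 and young deficient array 1 the difference was -1.06 (limma adjusted p = 0.0549).

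At 18 months Spag16 read -4.83, -5.37, -5.16 and -4.73 in deficient and -5.06, -5.28, -4.43 and -4.68 in wild-type brains. These groups overlapped, with a difference of -0.16 ± 0.26 by probe 2. In young mice probe 4 read -5.77, -6.22, -6.10 and -5.70 in deficient and -4.15, -5.78, -4.76 and -4.27 in wild-type brains, overlapping at wild-type array 2, and it was above background on 2 of 4 and 4 of 4 arrays. It read -6.34, -6.23, -6.33 and -5.59 in old deficient and -4.72, -5.50, -4.51 and -4.65 in old wild-type brains, without overlap, although it was above background on 1 of 4 old deficient and 3 of 4 old wild-type arrays. By that probe the difference was -1.28 ± 0.31 at 18 months and -1.21 ± 0.31 at 4 months. Probe 4 passed the filter through young wild type alone, the group where it was highest, and most of its deficient values were not well above background, so these differences are given as a description with no test. The difference between the probes was not tested. Probes 1 and 3 were above background on 6 and 0 arrays and did not pass the filter.

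**Figure D2:**
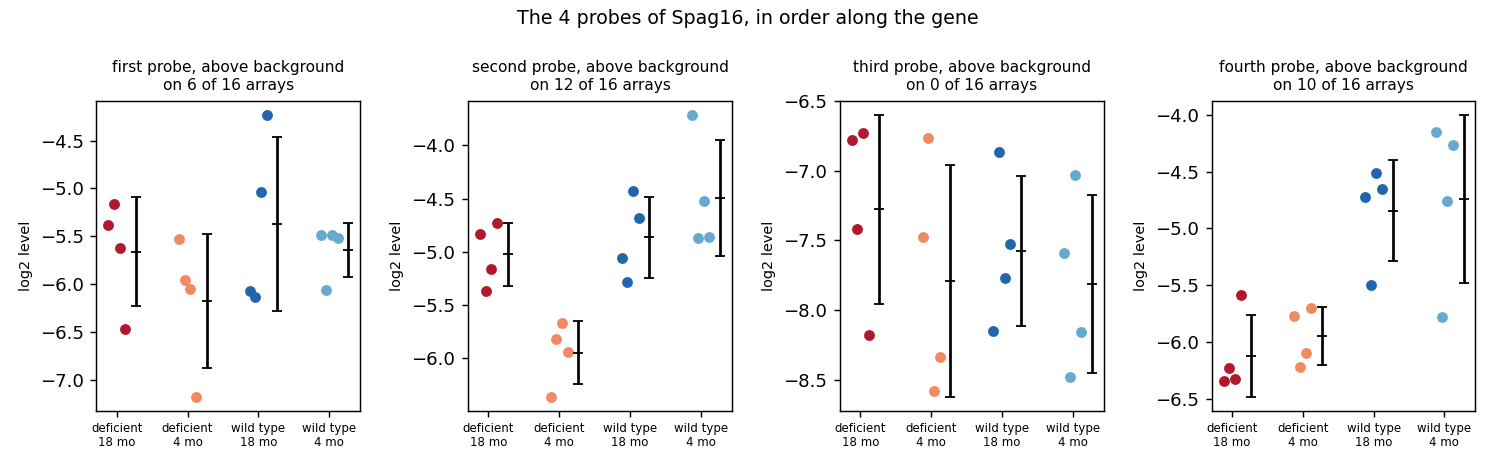
Log2 levels of the 4 probes of Spag16 on each array, with the mean ± SD of each group (n = 4) as a bar beside the points, and y scales that differ. Probe 2 is lowest in young deficient brains (mean -5.95, against -5.02 in old deficient brains), and probe 4 reads lower in both deficient groups, where most of its spots were not well above background (-6.12 and -5.94, against -4.84 and -4.74 in old and young wild type).

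Rsph9, a protein of the radial spoke head, had genotype differences of like size at both ages. It read 2.19, 1.80, 1.77 and 2.11 in young deficient and 2.48, 2.18, 2.33 and 2.49 in young wild-type brains, where deficient array 1 just exceeded wild-type array 2. The difference was -0.40 ± 0.13 (limma adjusted p = 0.137). In old mice it read 1.74, 2.21, 1.80 and 2.05 in deficient and 2.50, 2.54, 2.27 and 2.27 in wild-type brains, with no overlap and a difference of -0.45 ± 0.13 (limma adjusted p = 0.141). Averaged over both ages Rsph9 fell, 1.35-fold lower in deficient brains at -0.43 ± 0.09 (limma adjusted p = 0.0218).

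In that averaged comparison 2 of the 26 genes fell, Rsph9 and Spag16 (-0.81 ± 0.18, limma adjusted p = 0.0239), and 0 rose, where 1.53% of all genes fell and 1.65% rose, 3.18% together. Unadjusted p was under 0.05 for 5 of 26, against 15.4% of all genes. The difference was below 0 for 23 of 26 genes (median -0.17), against 45% of all genes. Both calls lay near the threshold. Rsph9 was lost without young wild-type array 1 (limma adjusted p = 0.0503), and Spag16 without old deficient array 2 or 3 (highest limma adjusted p = 0.0567). Spag16 was also lost with normexp (limma adjusted p = 0.438) and from the deposited log2 values (limma adjusted p = 0.0508), and with no filter on dim probes both were lost (limma adjusted p = 0.0506 for Rsph9 and 0.0534 for Spag16).

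Spag6, a central pair protein, read -1.14, -0.91, -1.0 and -1.14 in young deficient and -0.51, -0.66, -0.91 and -0.69 in young wild-type brains, meeting at -0.91. The difference was -0.35 ± 0.10 (limma adjusted p = 0.0913). At 18 months the deficient arrays read -0.65, -0.67, -0.87 and -0.87, and the wild-type arrays -0.92, -0.80, -0.79 and -0.91, a difference of 0.09 ± 0.10. Of the others in this class, the spoke head genes Rsph1 and Rsph4a differed by -0.33 ± 0.21 and -0.19 ± 0.13 in young mice, and Hydin, a central pair projection protein, by -0.17 ± 0.31.

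**Figure D3:**
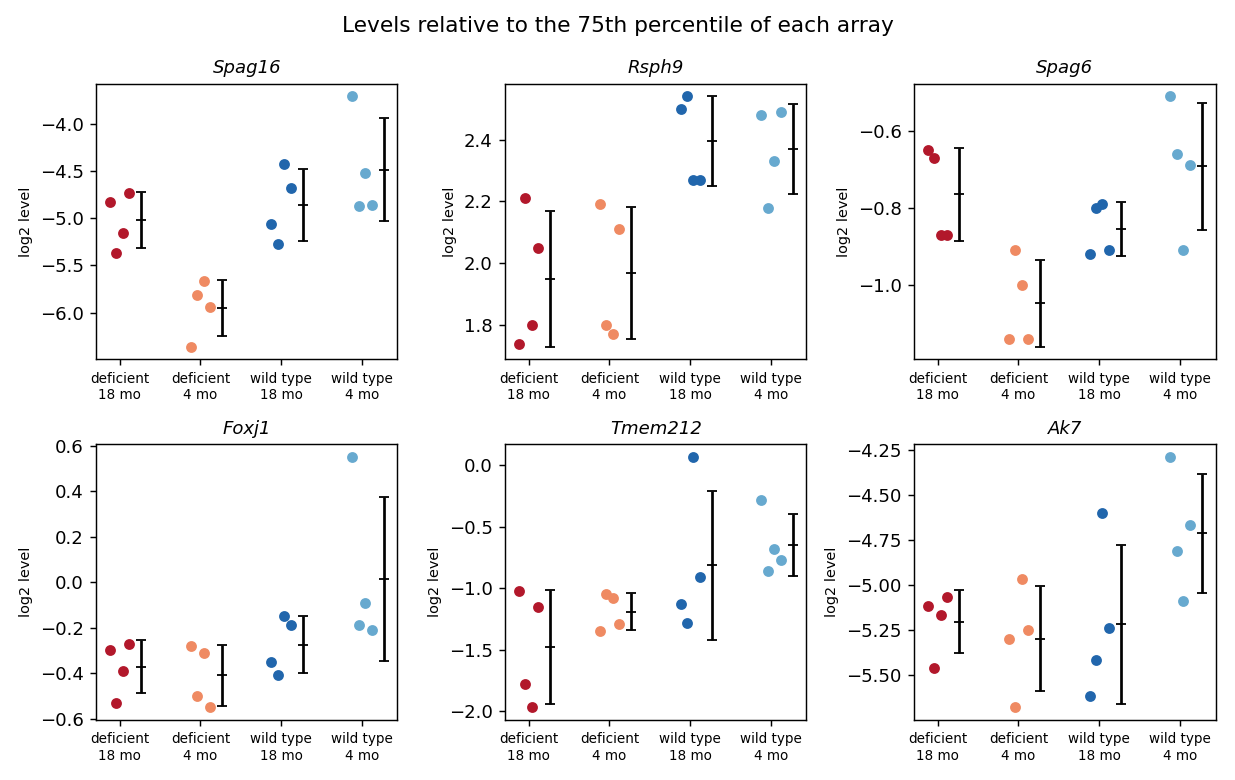
Log2 levels relative to the array's 75th percentile for 6 genes on each array, with the mean ± SD of each group (n = 4) as a bar beside the points; y scales differ. Rsph9 is lower in both deficient groups (means 1.95 and 1.97) than in old and young wild type (2.40 and 2.37), while Foxj1 in young wild type is spread by 1 array at 0.55.

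Among the dynein arm genes, 2 of 3 were below 0 in young mice and 1 of 3 in old mice. Dnaic2, an intermediate chain of the outer dynein arm, was the gene whose old deficient arrays were all higher. It read -1.33, -1.51, -1.54 and -1.58 in old deficient and -1.82, -1.87, -1.73 and -1.77 in old wild-type brains, differing by 0.31 ± 0.20 (limma adjusted p = 0.733). In young mice it read -1.44, -1.88, -1.90 and -1.91 in deficient and -0.88, -2.03, -1.98 and -1.68 in wild-type brains, with array 1 highest in both groups. The shared estimate of spread therefore includes those 2 arrays, which are in neither group compared at 18 months. Without them, an alternative chosen after seeing the data, the difference at 18 months was 0.31 ± 0.09 (limma adjusted p = 0.11). Dnaic1, another outer arm intermediate chain, was above 0 at both ages at 0.26 ± 0.19.

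Dnali1, an axonemal dynein light chain of the inner arms, read -1.64, -1.62, -1.16 and -1.63 in young deficient and -0.63, -1.49, -1.23 and -1.16 in young wild-type brains. In old mice it read -1.45, -1.85, -1.87 and -1.32 in deficient and -1.63, -1.92, -1.06 and -1.39 in wild-type brains. The groups overlapped at both ages, with differences of -0.38 ± 0.21 and -0.12 ± 0.21.

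Tektins and ruler proteins were below 0 for 4 of 6 genes at either age, with 0 called. Tekt2, a tektin of the doublet microtubules, read -2.64, -3.56, -3.52 and -3.60 in young deficient and -2.82, -3.10, -3.15 and -2.90 in young wild-type brains, so array 1 of the deficient group was the highest of the 8 and the other 3 the lowest. At 18 months Tekt2 read -3.25, -3.51, -3.65 and -3.46 in deficient and -3.33, -3.08, -3.15 and -3.79 in wild-type brains, which overlap. Tekt1 differed by -0.46 ± 0.17 (limma adjusted p = 0.185) and Ccdc39, one of the ruler proteins, by -0.31 ± 0.15 in young mice, while its partner Ccdc40 differed by 0.02 ± 0.18.

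The other ciliary genes were below 0 for 8 of 8 in young mice (median -0.33) and 7 of 8 in old mice (median -0.07). Tmem212, a membrane protein gene of ependymal cells, read -1.35, -1.05, -1.08 and -1.29 in young deficient and -0.28, -0.86, -0.68 and -0.77 in young wild-type brains, without overlap and with a difference of -0.54 ± 0.27 (limma adjusted p = 0.311). The old deficient arrays read -1.02, -1.78, -1.97 and -1.15, and the old wild-type arrays -1.13, -1.28, 0.07 and -0.91. That difference was -0.67 ± 0.27 (limma adjusted p = 0.372), and -0.37 without old wild-type array 3.

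Fam183b held a narrow band of 1.28, 1.28, 1.35 and 1.25 in young deficient brains, below 1.83, 1.59, 1.45 and 1.68 in young wild-type brains. The young difference was -0.35 ± 0.13 (limma adjusted p = 0.202). At 18 months Fam183b read 1.49, 1.63, 1.35 and 1.69 in deficient and 1.61, 1.37, 1.99 and 1.35 in wild-type brains, which overlap.

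Ak7, an adenylate kinase of cilia, read -5.30, -5.68, -4.97 and -5.25 in young deficient and -4.29, -4.81, -5.09 and -4.67 in young wild-type brains, differing by -0.58 ± 0.22 (limma adjusted p = 0.183). In old mice Ak7 read -5.12, -5.46, -5.17 and -5.07 in deficient and -5.62, -5.42, -4.60 and -5.24 in wild-type brains, so the groups overlapped at both ages.

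Pifo, known for its part in the disassembly of primary cilia, read -4.43, -4.63, -4.22 and -3.93 in old deficient and -3.97, -3.93, -3.81 and -4.09 in old wild-type brains, differing by -0.35 ± 0.25 (limma adjusted p = 0.774). Young deficient brains read -3.18, -3.96, -4.11 and -4.48, and young wild-type brains -3.48, -4.23, -4.13 and -3.53. Enkur, a calmodulin-binding protein of cilia, differed by -0.32 ± 0.13 in young mice (limma adjusted p = 0.217), and Meig1, Iqca and Mlf1 by -0.10, -0.08 and -0.43, all with overlapping groups.

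Both secreted or surface genes were above 0 in young and below 0 in old mice. Rarres2, which encodes the secreted protein chemerin, read 2.99, 1.78, 1.97 and 2.20 in young deficient and 2.15, 1.83, 1.98 and 2.14 in young wild-type brains, where young deficient array 1 stood out. The 18-month values were 1.87, 1.60, 1.40 and 1.94 in deficient and 1.77, 2.13, 1.95 and 2.07 in wild-type brains. The genotype differences of 0.21 ± 0.21 and -0.28 ± 0.21 did not pass the test. Cdhr3, a cadherin of human airway ciliated cells, differed by 0.09 ± 0.18 and -0.07 ± 0.18.

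In old mice the set lay closer to 0. The difference was below 0 for 19 of 26 genes with a median of -0.07, against 49% of all genes and a median of 0.0053. The median was 0.02 without old wild-type array 3, -0.02 without old deficient array 3, and -0.12 without old deficient array 4, old wild-type array 1 or old wild-type array 2. None of the 26 genes passed limma's test in old mice (lowest adjusted p = 0.141), where 1.48% of all genes did (0.912% higher and 0.569% lower). Unadjusted p was under 0.05 for 2 of 26, against 9.91% of all genes. Every old deficient array was above every old wild-type array for 1 gene, Dnaic2 (4.42% of all genes), and below for 1, Rsph9 (3.67% of all genes).

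**Figure D4:**
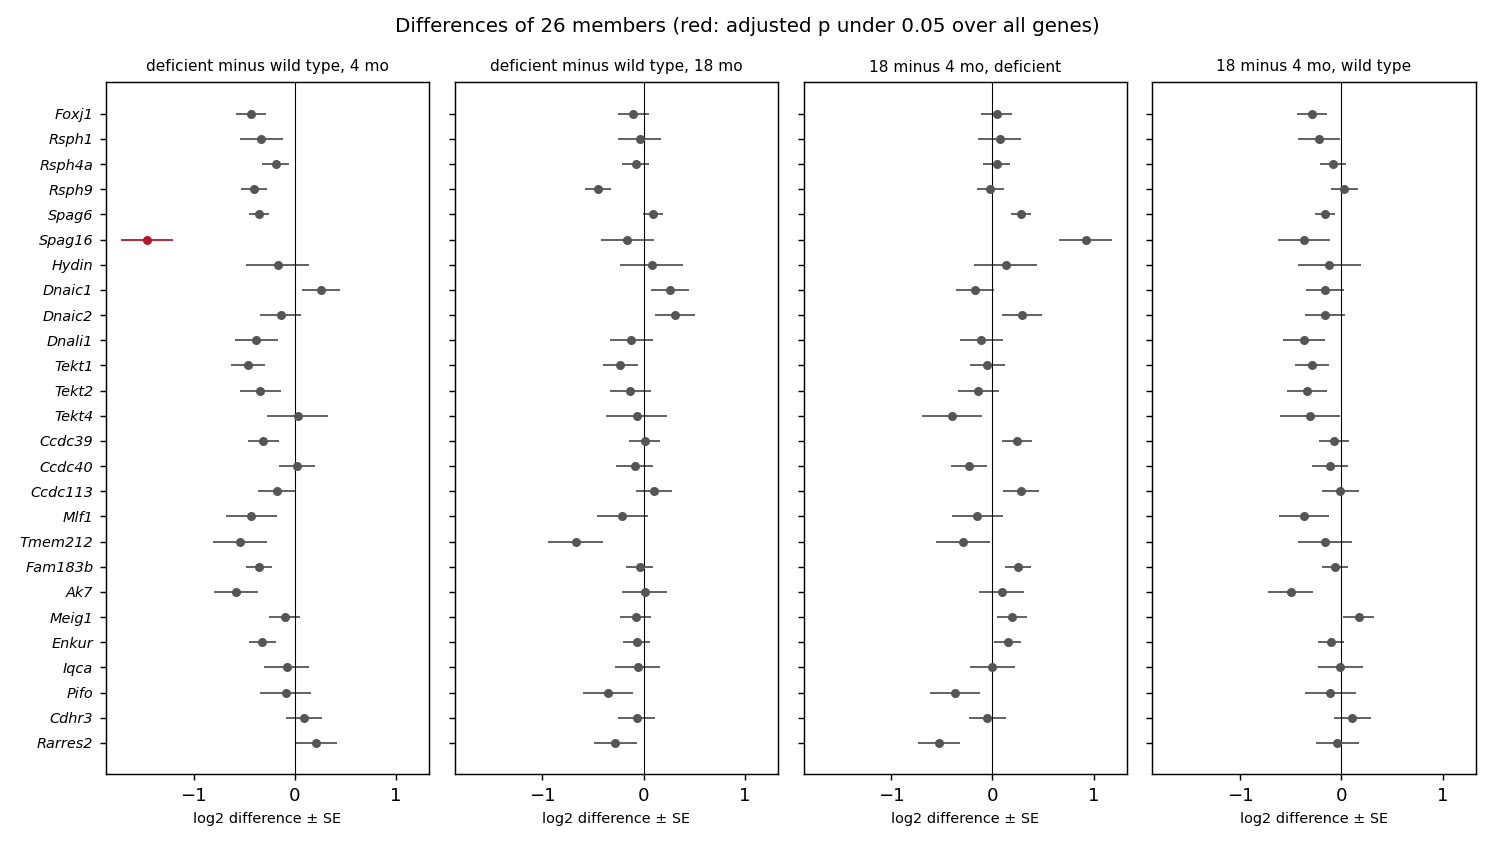
Log2 difference ± SE (limma, n = 4 arrays per group) of the 26 genes in the 4 comparisons of single groups; red marks adjusted p under 0.05 over all genes. Spag16 in young mice (-1.46) is the marked point, and most genes lie left of 0 in the first and last panels (21 and 23 of 26). Both of these panels subtract the same young wild-type arrays.

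Age was compared within each genotype, and so within a slide. In deficient brains the difference, 18 months minus 4 months, was balanced around 0, with 12 of 26 genes below 0 and a median of 0.02, against 52% and -0.02 over all genes. No member passed limma's test, where 2.37% of all genes did (1.25% higher and 1.12% lower), and 3 of 26 had an unadjusted p under 0.05 (20.9% of all genes). For 3 genes every old array was above every young array (Spag16, Spag6 and Fam183b), where 7.78% of all genes did this, and for 0 genes every old array was below (10.2% of all genes). Spag16 differed by 0.92 ± 0.26 (limma adjusted p = 0.0703) by probe 2, which was well above background on 4 of 4 old but 1 of 4 young deficient arrays, so the size of this difference is uncertain. Without young wild-type array 1, which is in neither group of this comparison, its adjusted p was 0.0368. Spag6 differed by 0.28 ± 0.10 (limma adjusted p = 0.134) and Fam183b by 0.25 ± 0.13. Rarres2 differed by -0.53 ± 0.21 (limma adjusted p = 0.174), and by -0.28 without young deficient array 1.

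In wild-type brains the difference, 18 months minus 4 months, was below 0 for 23 of 26 genes, with a median of -0.14, against 49.3% of all genes and a median of 0.0024. None of the members passed limma's test (lowest adjusted p = 0.705), where 0.421% of all genes passed (0.169% higher and 0.252% lower). Unadjusted p was under 0.05 for 1 of 26, against 6.31% of all genes. The groups were separate for 0 genes in either direction, against 1.36% of all genes higher and 2.18% lower. The 4 with the smallest p were Ak7 (-0.50 ± 0.22), Foxj1 (-0.29 ± 0.15), Dnali1 (-0.37 ± 0.21) and Tekt2 (-0.34 ± 0.20). Without young wild-type array 1 Foxj1 differed by -0.11 and Dnali1 by -0.21. Without old wild-type array 2 Dnali1 differed by -0.23, and without old wild-type array 4 Tekt2 differed by -0.19. Without young wild-type array 1 the median was -0.04 and 17 of 26 genes were below 0. Choroid plexus genes were below 0 for 25 of 25 in the same comparison (median -0.62, 0 called), with medians per array of -0.45 to 0.27 in old and -0.27 to 1.44 in young wild-type brains. Pituitary genes were below 0 for 6 of 6 (median -4.31, 0 called), and olfactory genes for 7 of 9 (median -0.15, 2 called lower). Hox genes of the spinal cord and caudal hindbrain were below 0 for 11 of 11 (median -3.36, 4 called lower), where 0.252% of all genes fell. With age in deficient brains the Hox genes were also below 0 for 11 of 11 (median -2.07, 2 called lower), where 1.12% of all genes fell. The part of these lists in the age differences of the cilia genes was not tested.

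Whether the age difference itself depended on genotype was tested as an interaction, the deficient age difference minus the wild-type one. It was above 0 for 18 of 26 genes with a median of 0.23, against -0.01 over all genes. None of the 26 passed limma's test, where 0.187% of all genes did (0.122% above and 0.0651% below 0). The 2 with an unadjusted p under 0.05, against 10.6% of all genes, were Spag16 (1.30 ± 0.36, adjusted p = 0.228) and Spag6 (0.44 ± 0.14, adjusted p = 0.303). Without young wild-type array 1 the median was 0.09. The young wild-type arrays enter this interaction, the genotype difference in young mice and the age difference in wild type, so these are not independent. Slide row was reversed between the genotypes, so row and interaction cannot be told apart.

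The genes varied between arrays of a group more than the typical gene on the array. Their median within-group SD was 0.29 log2 units, against 0.24 over all genes tested. Hydin varied most, with an SD of 0.47, and Spag6 least, with 0.12. The array that held the highest value was young wild-type array 1 for 10 of 26 genes, young deficient array 1 for 6 and old wild-type array 3 for 5. Of the 6 genes with several kept probes, the probes had the same direction in 5 in young mice, with Cdhr3 as the exception, and in 6 in old mice.

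A wider list of other motile cilia genes, 66 of 83 tested, also lay mostly below 0 in young mice. Of these, 46 were below 0 (median -0.20) and 1 fell at 4 months (0.847% of all genes fell), Ccdc153, a coiled-coil gene of motile cilia whose probe lies at chr9:44054861-44054920. It read 0.07, -0.50, -0.65 and -0.78 in young deficient and 1.70, 0.90, 0.97 and 1.37 in young wild-type brains, differing by -1.70 ± 0.31 (limma adjusted p = 0.0137). At 18 months Ccdc153 read -0.31, -0.99, -1.14 and 0.43 in deficient and 0.90, 1.33, 1.61 and 1.10 in wild-type brains, a difference of -1.74 ± 0.31 (limma adjusted p = 0.00848). No array of either deficient group reached the wild-type arrays of its age. In old mice 34 of the 66 genes were below 0 (median -0.02).

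Averaged over ages 4 of these 66 genes fell and 1 rose, where 1.53% of all genes fell and 1.65% rose. Besides Ccdc153 (-1.72 ± 0.22), the lower genes were Rsph3a (-0.51 ± 0.11) and Rsph3b (-0.42 ± 0.10), closely related copies of a radial spoke gene whose probes may share signal, and Lrrc6 (-0.42 ± 0.10), an assembly factor of dynein arms. Dnahc8, a dynein heavy chain, was higher by 0.67 ± 0.16 (limma adjusted p = 0.0372). The probes of Rsph3a, Rsph3b and Dnahc8 lie on chromosome 17, as does that of Rsph9. Those of Rsph1 and Tekt4 lie there too, and these genes were not called averaged over ages (-0.19 ± 0.15 and -0.02 ± 0.21). Those of Ccdc153 and Lrrc6 lie on chromosomes 9 and 15. Any part of chromosome position in these differences was not tested. The 12 heavy chains tested under Dnahc symbols were below 0 for 9 genes in young mice (median -0.40, 0 called) and above 0 for 8 in old mice (median 0.13, 0 called). Among them Dnahc5 read -4.37, -3.07, -3.20 and -3.24 in young deficient and -2.54, -2.55, -2.83 and -3.21 in young wild-type brains, and -2.79, -2.43, -2.53 and -2.12 in old deficient and -2.76, -2.94, -2.21 and -3.06 in old wild-type brains. Its old deficient arrays were all above its young deficient ones, as for 6 of the 66 genes and 7.78% of all genes. The opposite order was seen for 4 of the 66 and 10.2% of all genes. The age difference of Dnahc5 in deficient mice was 1.0 ± 0.27 (limma adjusted p = 0.0625).

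**Figure D5:**
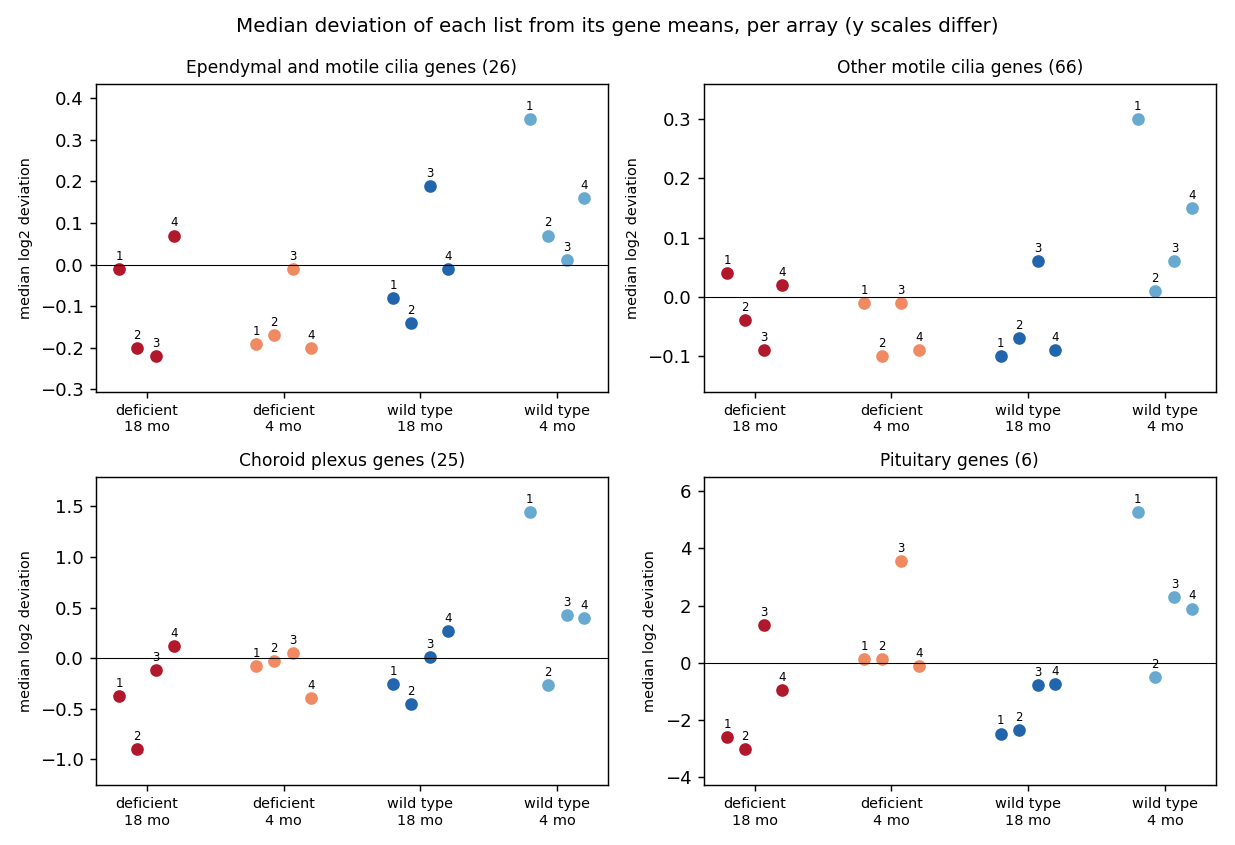
Median deviation of each list from its gene means (log2) on each array, numbered by replicate, for the 26 cilia genes, 66 other motile cilia genes, 25 choroid plexus genes and 6 pituitary genes; y scales differ. Young wild-type array 1 is the highest of the 16 arrays for each of the 4 lists (0.35, 0.30, 1.44 and 5.26).

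Lists beside the motile cilium gave the surroundings of these values in young mice. Genes listed for multiciliated cell formation, not all of them regulators, were below 0 for 5 of 12 (median 0.05, 0 called). Genes of primary cilia and intraflagellar transport were below 0 for 22 of 30 (median -0.12, 0 called). Averaged over ages 1 gene of that list rose, where 1.65% of all genes rose. It was Ift46, a transport protein of cilia, at 0.36 ± 0.07 (limma adjusted p = 0.0115). Astrocyte genes were below 0 for 3 of 14 (median 0.18) and neuron genes for 1 of 12 (median 0.15), with 0 called in either list, and neuroblast genes for 10 of 12 (median -0.39, 0 called). Pituitary genes were below 0 for 6 of 6 (median -1.19, 0 called) and olfactory genes for 6 of 9 (median -0.23). Of the 9 olfactory genes 2 were called lower, where 0.847% of all genes fell. They were S100a5 (-2.05 ± 0.41) and Stoml3 (-1.29 ± 0.29), both genes of olfactory neurons. Hox genes of the spinal cord and caudal hindbrain were above 0 for 11 of 11 (median 1.58, 0 called). Their medians per array were 1.01 to 3.04 in young deficient and -0.53 to 1.53 in young wild-type brains. At 18 months the Hox genes were also above 0 for 11 of 11 (median 2.02). There 4 were called higher, where 0.912% of all genes rose. Averaged over ages 6 Hox genes were called higher, where 1.65% of all genes rose. These lists differed between arrays of 1 group as well, and their part in the values of the cilia genes was not tested.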

How the data were processed

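RNA of 16 whole brains was labelled with Cy3, per the labels' protocols, and hybridised in 1 colour. The spot intensity values were read and background-corrected by Agilent Feature Extraction 10.7.3.1, per the file headers. The deposited series table is in log2 and served as an alternative; the submitters' processing notes name limma without steps. In the labels the strain and age entries are swapped.

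Processed signals were taken as log2 minus the array's 75th percentile. Between 98 and 182 spots per array flagged as outliers were left out, and spots of a probe were averaged. Probes had to be well above background on every array of 1 or more of the groups, and the brightest remaining probe on average stood for its gene. A 4-group model was fitted with limma 3.58.1 (R 4.3.3, the data.table package, version 1.17.8), with 12 residual degrees of freedom before moderation and Benjamini-Hochberg adjustment over 23032 genes at 0.05. The number of arrays limits the precision. Arrays are biological replicates by the design text, with no detail of litters or cages, so p-values reflect the variation among these arrays only.

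Array values were given for Foxj1, called genes and the 4 genes with the smallest p in each comparison of single groups. Of the other cilia lists, called genes and up to 2 with the smallest p per comparison could be named; the remaining lists are described by counts, mainly at 4 months, and not all of their called genes are named. The genes and lists were chosen with earlier results of these data known. Alternatives were normexp background correction (offset 50), quantile normalization, 2 other filters, the mean of probes, the deposited table, fits to 2 groups, a replicate block and arrays left out. Promoters were matched by symbol to RefSeq, and Spag6 through Spag6l.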

Additional observations from a re-analysis of the deposited data

Results flagged for a closer look

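Within groups of 4 arrays, 7 of 108 tested sets of values held an array far from the other 3 by Dixon's criterion, which chance gives in about 5% of sets. Hydin read -2.12 on old deficient array 2, against -3.66 to -3.55 on the others. Young deficient array 1 stood out for Tekt2 at -2.64, against -3.60 to -3.52, and for Dnaic2 at -1.44, against -1.91 to -1.88. Young deficient array 3 stood out for Dnali1 at -1.16, against -1.64 to -1.62, and for the median deviation of the 26 genes tested at -0.01, against -0.20 to -0.17. Tekt1 read 0.64 on old wild-type array 4, against 0.48 to 0.51, and Foxj1 read 0.55 on young wild-type array 1, against -0.21 to -0.09. None of the 26 genes passed limma's interaction test for an age effect that differed between genotypes.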

How the results depend on the processing

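Over the alternatives run for the counts and medians of the set, 281 values were the same and 15 moved. A median was the same if it moved by less than its SD between replicates (0.13), whichever side of 0 it reached. A count was the same if it was equal or close. For the named genes 531 were the same, 10 lost a call, 1 gained one and 1 reversed. A named gene was the same if its sign held and it stayed called or stayed uncalled, whatever the size of its difference. The count of same values therefore does not measure how stable the sizes were. At 4 months 0 genes were called with normexp background correction, with only probes above background on all 16 arrays (25 genes tested, without Spag16), with only the 2 young groups fitted and without both young replicate 1 arrays, an alternative chosen after seeing the data, which gave a median of -0.16. Without those arrays the interaction median was 0.09. Leaving out single arrays gave an interaction median of 0.09 to 0.31 and 0 to 1 called genes for age in deficient mice. Averaged over ages 1 gene was called with normexp, with probes above background on all arrays and with the deposited table (Rsph9 each time), 0 with no filter (more genes tested, adjusted p = 0.0506 for Rsph9 and 0.0534 for Spag16), and 1 to 2 with single arrays left out. Foxj1 reversed to -0.01 for age in deficient mice without young deficient replicate 4, from a value of 0.04. Apart from the filters, whose construction changes the genes tested, the cause was not tested. Between groups, same-numbered arrays had correlations of deviations from -0.44 to 0.27 (8 of 24 over 0.1). Arrays with unlike numbers had -0.50 to 0.65 (15 of 72 over 0.1), and pairing was not tested further. The replicate block changed no count of called genes of the set, with 1 at 4 months, 2 averaged over ages and 0 in the other comparisons. Over all genes tested it lowered the calls in each comparison, from 352 to 192 at 4 months and from 732 to 541 averaged over ages. Signal near background limits Spag16 most, at 12 of 16 arrays above it.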
